A study of Mus musculus with 16 samples.

Results

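Translational efficiency (TE), the ratio of ribosome footprints to total RNA of a gene, was compared between mouse embryonic stem cells without Nat1 and the wild-type (WT) line. Ribosome-protected fragments (RPF, the mRNA pieces that translating ribosomes shield from nuclease) and total RNA had been sequenced from the same cultures of RF8, an established mouse embryonic stem cell line. All cultures were grown on gelatin with LIF, the cytokine that holds such cells undifferentiated. The comparison took 3 Nat1-/- lines (B12, B2 and C3, numbered 1, 2 and 3) and 2 WT cultures (WTex1 and WTex2, replicates 1 and 2), which is 5 of the 8 cultures and 10 of the 16 libraries. The 3 Nat1+/- cultures (A7, B4 and C1) entered the same fit, where they add to the estimate of the spread, and their values are given for some of the genes. The labels name no targeting vector, deleted exon or other allele. Log2 TE was log2((RPF + 1)/(total RNA + 1)) per culture, from the RPF and total RNA libraries of that culture. Of 21977 genes in the table, 12933 had a mean of at least 10 normalised reads over the 8 RPF libraries and over the 8 total RNA libraries and were tested. Just inside that limit lay Diras1, with a mean RPF of 10.01, and just outside it Ly6k, with a mean total RNA of 9.99.

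Eif4g2, for which Nat1, DAP5 and p97 are other names, encodes a translation factor. Its protein resembles the carboxy-terminal part of the initiation scaffold eIF4G, which joins the helicase eIF4A and the factor eIF3 to an mRNA, but it lacks the part that binds the cap-binding protein eIF4E. It is known for carrying initiation on mRNAs that rely less on cap-bound eIF4E, and in stem cells it is known to be needed for leaving the undifferentiated state. In a ratio of footprints to RNA, a gene whose RNA and footprints move together keeps its TE, so TE separates a change in translation from a change in mRNA level. Because RPF and total RNA were scaled separately, the level of TE has no absolute meaning, and a shift common to nearly every gene is invisible in it.

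RPF libraries held 17480387 to 23777667 reads. Total RNA libraries held 33562445 to 42562496 in WTex1, WTex2 and B12 and 13206434 to 16378339 in the other 5. Replicates differed by more than counting noise, and the SD over genes of the log2 TE difference was 0.38 between the WT cultures and 0.47 to 0.56 between pairs of Nat1-/- cultures. Each Nat1-/- and Nat1+/- culture is a separately named line and the WT cultures are replicates of one line, so the WT spread holds no difference between lines, and nothing in the labels says whether WT replicates came from separate cultures. P-values measure only the spread between these samples. Stem cell markers were high throughout, with a summed RPF of 78929 and 97102 normalised reads for 8 genes in WT and 118799 to 147090 in Nat1-/-. The higher sum does not hold for each gene. Nanog had an RPF of 5624 and 8527 in WT against 17920, 18413 and 19139 in Nat1-/-, but Lin28a had 4037 and 3302 against 3915, 2447 and 1442. Of the fibroblast and smooth muscle markers, 19 were in the table, and their summed RPF was 18857 and 28530 in WT, 1830 to 6932 in Nat1+/- and 1055 to 1226 in Nat1-/-. Summed total RNA of the same markers was 9740 and 15437 in WT and 718 to 924 in Nat1-/-. The proteoglycan gene Dcn had an RPF of 16.3 and 8.71 in WT and 0 in the 3 Nat1-/- cultures, with a total RNA of 1.49 in C3. The matrix gene Postn had a total RNA of 9.67 and 29.0 against 0, with an RPF of 1.08 in B12 and 0.89 in B2. Both genes were too low to be tested. Other markers kept more reads, such as Col5a1 with an RPF of 716 and 797 in WT and 300, 358 and 665 in Nat1-/-. Thy1 had 162 and 121 against 125, 46.2 and 96.8. In bulk cultures, fewer cells of a type and less RNA per cell cannot be told apart.

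Few genes were called by limma for TE, while many were called for footprints and RNA. Limma (adjusted p under 0.05, Benjamini-Hochberg over the tested genes) called 14 of 12933 genes for TE (0.108%), 4 higher (0.0309%) and 10 lower (0.0773%) in Nat1-/-. In the same genes it called 4524 for RPF (35.0%) and 4637 for total RNA (35.9%). At an unadjusted p under 0.05 there were 1460 genes for TE (11.3%), 665 higher (5.14%) and 795 lower (6.15%). From the 5th to the 95th percentile, the TE change ran from -0.55 to 0.48 on the log2 scale, while RPF spanned -2.73 to 1.26 and total RNA -2.67 to 1.20. A change of at least 2-fold was seen in 282 genes for TE, 3020 for RPF and 2788 for total RNA. Footprints and RNA were both higher in 1631 genes and both lower in 1998. Footprints were lower and RNA higher in 3 genes, Mark3, Rnf19b and Wnk1, and the reverse was called in 0 genes. The median log2 TE was -0.40 and -0.38 in WT and -0.38, -0.38 and -0.35 in Nat1-/-.

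**Figure D1:**
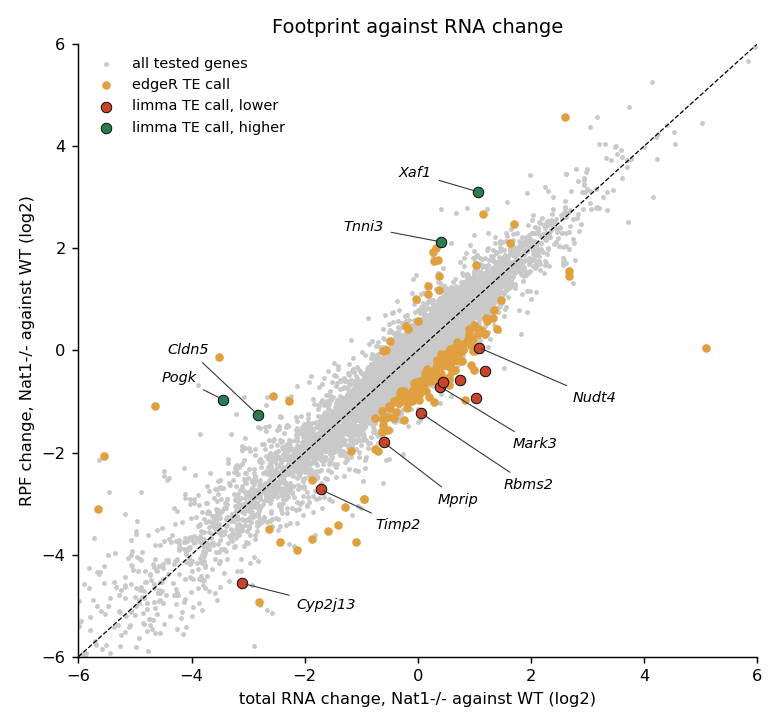
RPF change against total RNA change per gene, Nat1-/- against WT (log2, x axis total RNA, y axis RPF, dashed line equal change). Grey points are the tested genes, orange points the 173 called for TE by edgeR and the larger points the 14 called by limma. The cloud follows the diagonal, called genes lie to either side of it, and 47 genes fall outside the axes, which end at 6.

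These calls stood close to the threshold, with adjusted p between 0.0278 and 0.0496. A limma fit of only the 5 WT and Nat1-/- cultures called 0 genes (1082 at an unadjusted p under 0.05), and so did the fit with the replicate number as a block (1500). Without WT replicate 1, Nat1-/- replicate 2 or any of the Nat1+/- replicates, limma called 0 genes at unadjusted counts of 1028 to 1291, without WT replicate 2 only Ldhal6b, and without Nat1-/- replicate 1 or 3 it called 16 and 15, of which 7 each were among the 14. Count models on the recovered reads with a culture term called more, 173 genes with edgeR (1.34%; 30 higher, 143 or 1.11% lower) and 311 with DESeq2 (2.40%; 79 higher, 232 or 1.79% lower). EdgeR called 13 of the 14 limma genes and DESeq2 10. The limma genes without a DESeq2 call, Cldn5, Cps1, Cyp2j13 and Ptgs1, received no adjusted p from DESeq2, so it did not test them at this threshold. Both count models called 161 genes, 93.1% of the edgeR and 51.8% of the DESeq2 genes. Without WT replicate 1 the RPF and total RNA calls fell to 1933 and 2336, and without WT replicate 2 to 2599 and 2556. Non-overlap was common by itself, since the 3 Nat1-/- cultures lay above both WT cultures in 14.9% of tested genes and below both in 12.3%, 27.2% in all.

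With means of 50 or more normalised reads in each assay, 7 called genes fell in TE. They are Rnf19b (a RING-type ubiquitin ligase), Rbms2 (an RNA-binding protein), Mprip (a scaffold that links myosin phosphatase to RhoA), Mark3 (a kinase of microtubule-associated proteins and of Cdc25 phosphatase), Camsap2 (a protein that caps microtubule minus ends), Nudt4 (a diphosphoinositol polyphosphate phosphohydrolase) and Timp2 (an inhibitor of matrix metalloproteinases). The bases around the annotated start of transcription are shown for Rbms2, Mark3, Nudt4 and Rnf19b of these, with Map3k3 and Sos1 and with Xaf1, which rose. The first bases of an mRNA are where initiation factors and cap-proximal motifs act. The sequences are RefSeq windows of the assembly GRCm38.p6, each 30 bases written 5′ to 3′ on the strand of the gene. The 15 bases before the start are in lower case and the 15 bases from the start in capitals.
Rbms2, chr10:128180283-128180312, minus strand: ttgagttgagcaggcACTTCCTGTCCTGTT
Mark3, chr12:111574495-111574524, plus strand: ggaggaagccgaggcGCGGCCATCTTGAGT
Nudt4, chr10:95564132-95564161, minus strand: aagggggcggcgcgcATCCTCGGCGTCTCT
Rnf19b, chr4:129058129-129058158, plus strand: gcggctggtcggcttCTGTCTCTGGGAGGA
Map3k3, chr11:106084572-106084601, plus strand: cgcgcccagcggtttGTTTTTCGGAGCGTT
Sos1, chr17:80480439-80480468, minus strand: gttgcgagcaggttcAGTTTGCTAGTAGGA
Xaf1, chr11:72301614-72301643, plus strand: tcagttttgttttccTGTGTGCAAAGAAAC
None of these begins with C followed by 4 pyrimidines, the form of a terminal oligopyrimidine (TOP) start, which 2.51% of the 32851 windows in the table have. Counting every listed start, 1 of the 9 genes called lower that had a window has a TOP start, as do 3.03% of matched tested genes. Of 60 matched genes of cytosolic ribosomal proteins, whose mRNAs are known for TOP starts, only 14 (23.3%) have one here. A window without a TOP start therefore does not show that the mRNA lacks one. For Rbms2 and Mark3 the table lists 2 starts and one is shown. RefSeq windows matched 76.4% of the tested genes, too few for a comparison of start features between called and other genes.

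Mark3 footprints (RPF, normalised reads) were 1739 and 1767 in WT, then 1765, 1687 and 1755 in Nat1+/- cultures, against 1159, 1031 and 1029 in Nat1-/-. Its total RNA was 3853 and 4080 in WT, then 3974, 3914 and 4113 in Nat1+/- cultures, against 5398, 5245 and 5020 in Nat1-/-. Footprints were thus lowest and RNA highest in the 3 Nat1-/- cultures, and the other 5 cultures lay together in both assays. Log2 TE was -1.15 and -1.21 in WT, then -1.17, -1.21 and -1.23 in Nat1+/- cultures, against -2.22, -2.35 and -2.29 in Nat1-/-. The TE change was -1.11 ± 0.11 (log2, SE; limma adjusted p = 0.0301), which leaves 46.4% of the WT ratio. It was the one gene that the interaction model over 16 libraries called.

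Rnf19b showed the same pair of opposite changes, with a log2 change of -0.59 ± 0.18 in RPF (adjusted p = 0.0291) and 0.75 ± 0.16 in total RNA (adjusted p = 0.0052, limma). Its RPF was 429 and 388 normalised reads in WT and 292, 280 and 244 in Nat1-/-, and its total RNA 1074 and 914 against 1881, 1692 and 1449. Log2 TE was -1.32 and -1.23 in WT, then -0.77, -1.26 and -0.98 in Nat1+/- cultures, against -2.69, -2.59 and -2.57 in Nat1-/-, a change of -1.34 ± 0.16 (limma adjusted p = 0.0496). The 3 Nat1-/- cultures lay below the other 5, and of the Nat1+/- cultures A7 and C1 lay above WT and B4 between the WT cultures.

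Nudt4 differed from both in that its footprints did not pass the test. RPF was 1297 and 1324 in WT and 1590, 1289 and 1231 in Nat1-/-, overlapping, while total RNA rose from 3442 and 3781 to 8507, 7604 and 6836 (log2 change 1.08 ± 0.13, limma adjusted p = 2.6e-04). Its TE change was -1.02 ± 0.12 (limma adjusted p = 0.0397), a level at 49.2% of WT. In Rbms2 the footprints carried the change. Its RPF fell from 644 and 585 to 296, 261 and 231 (log2 change -1.23 ± 0.19, limma adjusted p = 0.0011), at a total RNA of 1551 and 1297 in WT and 1736, 1553 and 1185 in Nat1-/-. The Nat1+/- cultures had an RPF of 364, 362 and 282, which overlapped Nat1-/-, at a lower RNA of 947, 943 and 709, and their TE differed from WT by -0.15 (log2). The RNA of Rbms2 overlapped between WT and Nat1-/-, and its TE change was -1.28 ± 0.12 (limma adjusted p = 0.0301).

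Camsap2 footprints were 577 and 596 in WT and 444, 368 and 346 in Nat1-/- and its total RNA 1568 and 1620 against 2634, 1942 and 2014, with a TE change of -1.06 ± 0.12 (log2, SE; limma adjusted p = 0.0351). Its Nat1+/- cultures had the most footprints, 741 to 941, and an RNA level of 2376 to 2957 that overlapped that of Nat1-/-. Mprip fell in both assays, and more in footprints. Its RPF was 1944 and 1735 in WT and 601, 484 and 501 in Nat1-/- (log2 change -1.80 ± 0.17), its total RNA 6780 and 5905 against 5269, 3983 and 3438 (-0.60 ± 0.21), and its TE change -1.20 ± 0.14 (limma adjusted p = 0.0496).

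Timp2 was low in the Nat1-/- cultures in both assays, with an RPF of 231.5 and 338 in WT and 49.7, 29.3 and 49.0 in Nat1-/- and a total RNA of 205 and 334 against 95.2, 58.6 and 88.0. Its TE change was -1.01 ± 0.11 (log2, SE; limma adjusted p = 0.0351), and it is a secreted protein of mesenchymal cells, whose markers were higher in WT as given above. The part of those cells in the result was not tested. Over the 24 alternatives run, the TE change of Timp2 ranged from -1.09 to -0.89, of Mark3 from -1.14 to -1.04 and of Nudt4 from -1.08 to -0.96, none of the 3 changing sign, with calls in 10, 14 and 11 of them.

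**Figure D2:**
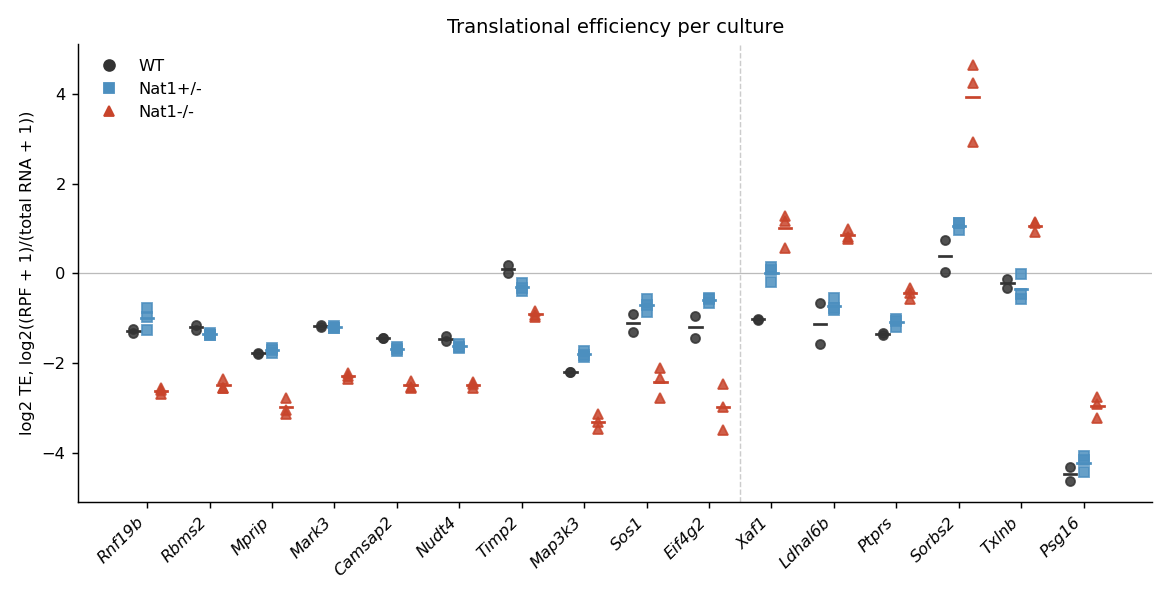
Log2 TE per culture for the 7 called genes that fell, Map3k3, Sos1 and Eif4g2 (left of the dashed line) and the 6 genes named as higher (right), 1 point a culture and a bar at the genotype mean. In the genes on the left the 3 Nat1-/- cultures lie below both WT cultures, and in those on the right above both. Non-overlap was a condition for naming the 7, and the 6 were picked by smallest p, so their separation is no separate evidence. Of the 6, limma called only Xaf1, and it did not call Map3k3, Sos1 or Eif4g2.

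A further 3 called genes fell at means under 50 normalised reads in an assay and are named after their values were seen. They are Ptgs1 (cyclooxygenase 1, -1.58 ± 0.16), Cyp2j13 (a cytochrome P450, -1.46 ± 0.15) and Cps1 (carbamoyl phosphate synthetase of the urea cycle, -1.96 ± 0.24; log2, SE; limma adjusted p = 0.0348, 0.0348 and 0.0496). The RPF of Cps1 was 10.9 and 24.2 in WT and 7.56, 8.88 and 7.97 in Nat1-/-, so that few reads stand behind its ratio. The same holds for Cyp2j13, with an RPF of 183 and 63.9 in WT and 4.32, 1.78 and 5.70 in Nat1-/-. Its total RNA was 10.9, 6.66 and 13.4 in Nat1-/-, and edgeR did not call it (adjusted p = 0.0758). In all, footprints were called lower in 7 of the 10 genes with lower TE, together with higher RNA in 2, lower RNA in 3 and no call for RNA in 2. Of the other 3, Nudt4 had more RNA alone and Ptgs1 and Cps1 had no call in either assay. Footprints were called lower in 18.2% of tested genes, and a choice by lower TE favours such calls.

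Eif4g2, the targeted gene, had a log2 TE of -1.44 and -0.96 in WT, then -0.58, -0.67 and -0.55 in Nat1+/- cultures, against -3.49, -2.98 and -2.46 in Nat1-/-. Nat1-/- values lay below WT and Nat1+/- values above it. Footprints fell by 3.91 ± 0.19 and total RNA by 2.14 ± 0.35 on the log2 scale (limma adjusted p = 7.3e-06 and 0.0012), and the TE change of -1.78 ± 0.29 was not called (adjusted p = 0.107). Total RNA of the gene was 47932 and 26984 in WT and 12249, 8795 and 5085 in Nat1-/-, so reads of the gene remain in the targeted cells. EdgeR called its TE (adjusted p = 0.0062), and the exact two-sided permutation test of the cultures gave p = 0.1, the smallest that 3 against 2 allows.

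Sos1 and Map3k3, taken up because this series is known for them, were lower in footprints at RNA levels that did not pass the test. Their choice was therefore not independent of these data. Sos1, the exchange factor that loads RAS with GTP, had an RPF of 629 and 784 in WT, then 887, 900 and 789 in Nat1+/- cultures, against 322, 335 and 387 in Nat1-/-. Its total RNA was 1557 and 1481 in WT, then 1443, 1329 and 1444 in Nat1+/- cultures, against 2220, 1692 and 1689 in Nat1-/-. Nat1-/- cultures were lowest in footprints and highest in RNA. The RPF change was -1.02 ± 0.17 (limma adjusted p = 0.0016), the RNA change 0.29 ± 0.15 (adjusted p = 0.17) and the TE change -1.30 ± 0.22 (log2, SE; limma adjusted p = 0.110, edgeR adjusted p = 0.0081).

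Map3k3, the kinase MEKK3 that acts upstream of ERK5 and other MAP kinases, had an RPF of 581 and 555 in WT, then 390, 541 and 437 in Nat1+/- cultures, against 219, 207 and 238 in Nat1-/-. Map3k3 RNA was 2663 and 2551, then 1290, 1903 and 1586, then 2198, 2306 and 2111. Nat1+/- cultures had the least RNA and an intermediate number of footprints, so their log2 TE of -1.72 to -1.86 stood above the -2.19 and -2.20 of WT, and Nat1-/- cultures at -3.32, -3.47 and -3.14 stood below. The TE change was -1.11 ± 0.14 (log2, SE; limma adjusted p = 0.0519, edgeR adjusted p = 0.0013), which leaves 46.2% of WT. The exact permutation test gave p = 0.1 for Sos1 and for Map3k3, again the smallest possible, and Sos1 was called in 2 and Map3k3 in 6 of the 24 alternatives, edgeR and DESeq2 among them.

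**Figure D3:**
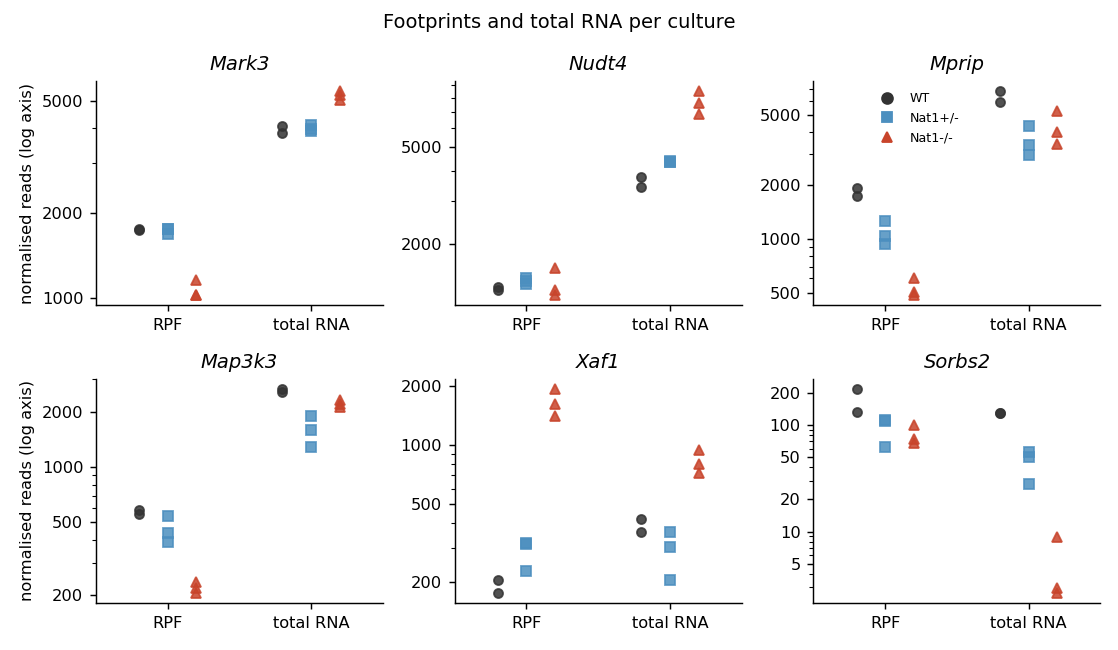
Normalised reads per culture in RPF and total RNA libraries (log axis, own range in each panel) for 6 genes, 1 point a culture. Mark3 shows fewer footprints with more RNA in Nat1-/-, Nudt4 more RNA at overlapping footprints, Map3k3 and Mprip fewer footprints, Xaf1 a larger rise in footprints than in RNA, and Sorbs2 a loss of RNA with footprints that remain.

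In the other direction, Xaf1 (an interferon-induced protein that binds the apoptosis inhibitor XIAP) rose in TE. Its RPF was 176 and 204 in WT, then 229, 314 and 318 in Nat1+/- cultures, against 1403, 1621 and 1934 in Nat1-/-. Xaf1 RNA was 359 and 419, then 206, 360 and 303, then 945, 718 and 799. Footprints rose by 3.10 ± 0.21 and RNA by 1.07 ± 0.24 (log2, SE), and log2 TE was -1.02 and -1.03 in WT, then 0.15, -0.20 and 0.07 in Nat1+/- cultures, against 0.57, 1.17 and 1.27 in Nat1-/-, with no overlap between the genotypes. The TE change of 2.03 ± 0.22 (limma adjusted p = 0.0348) is 4.09-fold.

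The other 3 calls had means under 50 in an assay and are named after their values were seen. Tnni3, cardiac troponin I, had more footprints, 22.5 and 15.5 in WT and 97.2, 65.7 and 95.7 in Nat1-/-, with overlapping RNA (TE change 1.71 ± 0.16, limma adjusted p = 0.0301). Cldn5, a claudin of tight junctions, had fewer footprints and still less RNA, 43.7 and 49.6 in WT and 7.76, 5.33 and 4.47 in Nat1-/- (1.56 ± 0.13, adjusted p = 0.0278). Pogk, a zinc finger gene with a transposase-derived domain, lost RNA, from 189 and 164 to 31.1, 9.33 and 11.9, with an RPF of 10.1 and 9.68 in WT and 7.56, 2.66 and 4.56 in Nat1-/- (2.48 ± 0.21, adjusted p = 0.0278). In these 3 genes an assay held few reads in Nat1-/- or WT.

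The next genes by p in the higher direction did not pass. Ptprs, a receptor tyrosine phosphatase, had an RPF of 1827 and 1867 in WT and 3955, 4079 and 3865 in Nat1-/- at an RNA of 4770 and 4681 against 4947, 5523 and 5718. Its footprints were called higher (1.10 ± 0.17, limma adjusted p = 0.0012), and its TE change was 0.91 ± 0.12 (adjusted p = 0.0519). Ldhal6b, a lactate dehydrogenase relative, had an RPF of 8.55 and 14.5 against 162, 369.5 and 403 (TE change 1.98 ± 0.25, adjusted p = 0.0516). Psg16, a pregnancy-specific glycoprotein gene with close relatives among which counting can split reads, read 1.52 ± 0.21 (adjusted p = 0.0734), and Txlnb, a taxilin, 1.28 ± 0.18 (adjusted p = 0.0700). Few reads stand behind the ratio of Txlnb, whose total RNA was 68.6 and 81.1 in WT and 4.66, 2.66 and 8.95 in Nat1-/-. Its RPF was 62.9 and 64.9 against 9.72, 7.10 and 20.5. EdgeR and DESeq2 did not call Txlnb (adjusted p = 0.136 and 0.190).

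Sorbs2, an adaptor of actin stress fibres, had the highest TE change of all tested genes, 3.55 ± 0.48 (log2, SE; limma adjusted p = 0.0619). Its total RNA was 129.8 and 130.1 in WT and 8.80, 2.66 and 2.98 in Nat1-/-, while its RPF was 134 and 218 in WT and 73.4, 68.4 and 99.1 in Nat1-/-. Footprints thus remained where RNA was near the counting limit, and the change read 3.70 with a pseudocount of 0.5 and 2.78 with one of 5, within a range of 2.53 to 4.06 over all 24 alternatives. Dlk1, an imprinted Notch-like ligand, showed the same arrangement, with an RPF of 186 in both WT cultures and 132, 27.5 and 22.8 in Nat1-/- and a total RNA of 91.6 and 69.6 against 4.14, 0 and 0. Its fitted change of 3.49 ± 0.65 (adjusted p = 0.116; edgeR adjusted p = 0.0082) therefore carries no interpretable size.

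The RAS and MAP kinase cascade runs from receptor adaptors through SOS and RAS to RAF, MEK and ERK, and it is the route by which FGF signals move stem cells out of the undifferentiated state. Of its 39 listed genes, each of which passed the minimum, limma called 0 for TE, 2 had an unadjusted p under 0.05 upward and 6 downward (5.14% and 6.15% of tested genes), and edgeR and DESeq2 each called 4 lower (1.11% and 1.79% of tested genes). The 3 Nat1-/- cultures lay below both WT cultures in 10 genes (25.6%, against 12.3% of tested genes) and above both in 7 (17.9%, against 14.9%), and the median change was -0.12 against 0.03 for the tested genes. This median depends on the cultures, at -0.20 without Nat1-/- replicate 3. Sos1 and Map3k3, for which the series was known beforehand, are among the listed genes and the edgeR calls.

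Besides Sos1 and Map3k3, the genes called by edgeR included Rasa1. Rasa1, a GTPase-activating protein that switches RAS off, had an RPF of 791 and 736 in WT and 568, 562 and 608 in Nat1-/- and a TE change of -0.66 ± 0.11 (log2, SE; limma adjusted p = 0.107, edgeR adjusted p = 0.0117). Sos2, the second SOS protein, read -0.64 ± 0.17, with Map3k4 at -0.35, Map3k5 at -0.30 and Nf1, another RAS inactivator, at -0.25, the groups not overlapping in any of the 4. On the other side Mapk3 (ERK1) read 0.36 ± 0.12, Gab1, a docking protein, 0.33 ± 0.15 and Nras 0.29 ± 0.12, whereas Map2k1 (MEK1) was at 0.01 and Grb2, the adaptor that brings SOS to receptors, at -0.02. Fgfr2 read 0.37 ± 0.61 at an RPF of 7.56, 7.99 and 2.28 in Nat1-/- against 246 and 205 in WT, a loss of footprints with an equal loss of RNA.

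**Figure D4:**
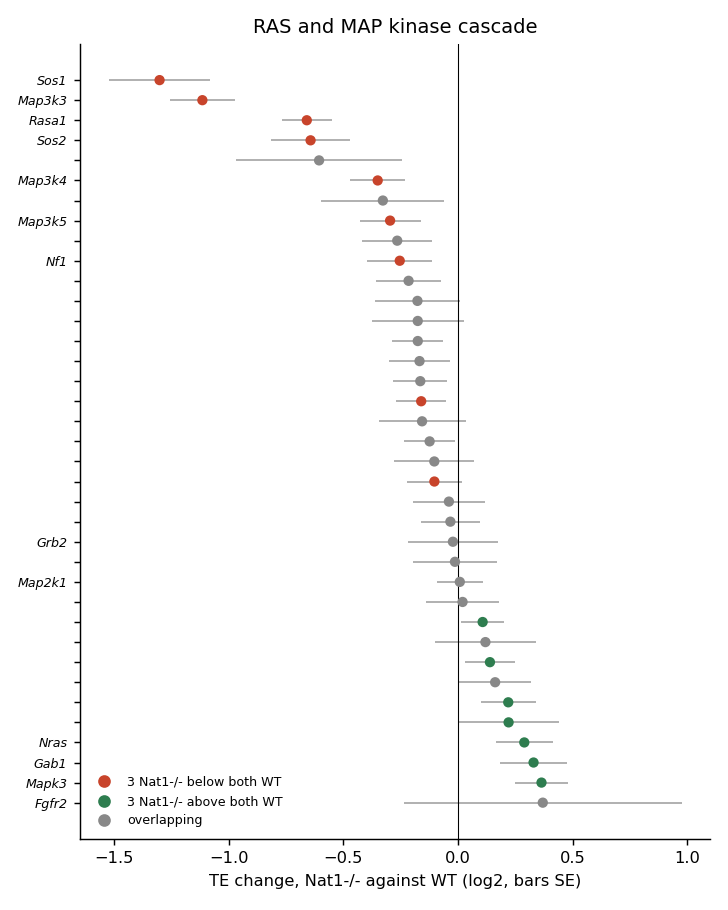
TE change of 37 of the 39 RAS and MAP kinase genes, Nat1-/- against WT (log2, points with SE bars, names for the genes described in the text), coloured by whether the 3 Nat1-/- cultures lay below both WT cultures (9), above both (7) or overlapped them. Sos1 and Map3k3 stand apart at the low end, at -1.30 and -1.11.

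Targets of ERK signalling showed little in TE as a list. Of 20, limma called 0, with 1 unadjusted p under 0.05 upward and 3 downward (5.14% and 6.15% of tested genes). EdgeR called 0 and DESeq2 1 lower, and the median was 0.01. Spred1, a feedback inhibitor of RAS activation, had the lowest value, -1.03 ± 0.30 (adjusted p = 0.250), from an RPF of 270 and 350 in WT and 185, 297 and 242 in Nat1-/- and a total RNA of 1769 and 1596 against 3094, 2724 and 2207. Spry1, another feedback inhibitor, read -0.46 ± 0.12 and the phosphatase Dusp4 -0.64, while Spry4 read 0.50 and Fos 0.41.

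Of 9 mRNAs reported elsewhere to depend on Nat1, the 3 Nat1-/- cultures lay below both WT cultures in 4 and above both in 0 (12.3% and 14.9% of tested genes). The list's median TE change was -0.30 against 0.03 for the tested genes, and it was -0.17 without Nat1-/- replicate 1. Limma called 0, 3 had an unadjusted p under 0.05 downward (6.15% of tested genes), and edgeR and DESeq2 each called 3 lower (1.11% and 1.79% of tested genes), namely Wnk1, Rock1 and Apaf1. Wnk1, a kinase of ion transport, had an RPF of 3686 and 4539 in WT and 2195, 2685 and 2805 in Nat1-/- and a total RNA of 9144 and 8696 against 14900, 12887 and 11556. Its footprints fell by 0.68 ± 0.17 and its RNA rose by 0.55 ± 0.14 (limma adjusted p = 0.0113 and 0.0129), with a TE change of -1.23 ± 0.23 (limma adjusted p = 0.114, edgeR adjusted p = 0.0103).

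Rock1, the RhoA-activated kinase of the cytoskeleton, had an RPF of 1177 and 1549 in WT and 666, 631 and 777 in Nat1-/-, and a total RNA of 1955 and 1861 against 1713, 1584 and 1984 that overlapped. Its footprints fell (-0.97 ± 0.18, limma adjusted p = 0.0025) and its TE change was -0.85 ± 0.15 (limma adjusted p = 0.110). Apaf1, the core of the apoptosome, read -0.65 ± 0.12 (limma adjusted p = 0.116, edgeR adjusted p = 0.0172). The other 6 members were called by none of the 3 tools. Hmgn3, a nucleosome-binding protein, read -0.43 ± 0.47 (limma adjusted p = 0.775), with all 3 Nat1-/- cultures below both WT cultures and 2 of 3 Nat1+/- cultures lower still, Cdk1 0.08 ± 0.14, the inhibitors of apoptosis Xiap and Birc2 0.12 ± 0.18 and -0.09 ± 0.12, Akt1 -0.30 ± 0.19, and Bcl2, with 0 footprints in C3, 0.41 ± 0.76.

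Large chromatin regulators had a median TE change of 0.02 over 26 genes, with 0 limma calls. At an unadjusted p under 0.05 there were 2, both lower (6.15% of tested genes). EdgeR and DESeq2 each made 1 lower call (1.11% and 1.79% of tested genes). The edgeR call was Crebbp, the histone acetyltransferase CBP, with an RPF of 1521 and 1865 in WT, then 2056, 1964 and 1942 in Nat1+/- cultures, against 1167, 1121 and 1078 in Nat1-/-. Its total RNA was 2618 and 2704, then 1966, 1964 and 1910, then 5222, 4087 and 2788. Log2 TE was thus highest in Nat1+/- (0.00 to 0.06), lower in WT (-0.78 and -0.54) and lowest in Nat1-/- (-2.16, -1.87 and -1.37), a change of -1.14 ± 0.22 from WT (limma adjusted p = 0.116, edgeR adjusted p = 0.0111). Its relative Ep300 read -0.55 ± 0.20, also with the groups not overlapping, while Kmt2a, a histone methyltransferase, read 0.70 with overlapping groups. Apoptosis regulators, Apaf1 included, had a median of 0.04 over 24 genes and 0 limma calls. An unadjusted p under 0.05 was seen in 1 gene in each direction (5.14% of tested genes higher, 6.15% lower). Bcl2l2, a survival factor of the BCL2 family, read 1.15 ± 0.29 (limma adjusted p = 0.176), and DESeq2 called it higher.

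Genes of the translation machinery gave 0 limma calls in TE. In the eIF4G and cap-binding list, 21 of 22 genes were tested and the median was 0.02. An unadjusted p under 0.05 was seen in 1 gene in each direction (5.14% of tested genes higher, 6.15% lower). EdgeR and DESeq2 each called 1 lower (1.11% and 1.79% of tested genes), Eif4g2 itself by edgeR. Eif4g1, the main scaffold, read -0.10 ± 0.10 and Eif4g3 -0.19 ± 0.16, though the footprints of Eif4g3 went from 1067 and 1189 in WT to 284, 303 and 294 in Nat1-/- with its RNA. Eif4a2, a helicase paralogue, read 0.51 ± 0.17 (limma adjusted p = 0.300) and its footprints rose (1.51 ± 0.29, adjusted p = 0.0033), with RPF values of 5977 and 8556 against 13326, 21988 and 29033. Other initiation factors (34 genes) centred on 0.09, with 0 limma, edgeR and DESeq2 calls and 1 unadjusted p under 0.05, Eif6 at -0.29 ± 0.12.

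Cytosolic ribosomal protein mRNAs, whose TOP starts tie their translation to growth signals, had a median TE change of -0.10 over 81 genes. They had 0 calls by limma, edgeR and DESeq2 and 0 unadjusted p under 0.05. Of them 1 lay below both WT cultures (Rpl12, -0.43 ± 0.22) and 0 above, against 12.3% and 14.9% of tested genes. Behind that median the cultures differed. The median deviation of these genes from the WT mean was 0.17 and -0.17 in WT, 0.48 in B12, -0.14 in B2 and -0.55 in C3, while A7, B4 and C1 stood at -1.01, -0.87 and -0.86. The list's change turned from negative to positive without WT replicate 1 (0.12), without Nat1-/- replicate 3 (0.19), with the replicate block (0.03) and with B12 as the lone Nat1-/- culture (0.48), and it was -0.33 without Nat1-/- replicate 1 and -0.25 without WT replicate 2. With total RNA thinned to the shallowest library it was -0.09. Other TOP mRNAs (18 genes) followed the same order, at 0.35, 0.13 and -0.24 in B12, B2 and C3, and their median change was 0.01 (0 calls by the 3 tools, 0 unadjusted p under 0.05).

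**Figure D5:**
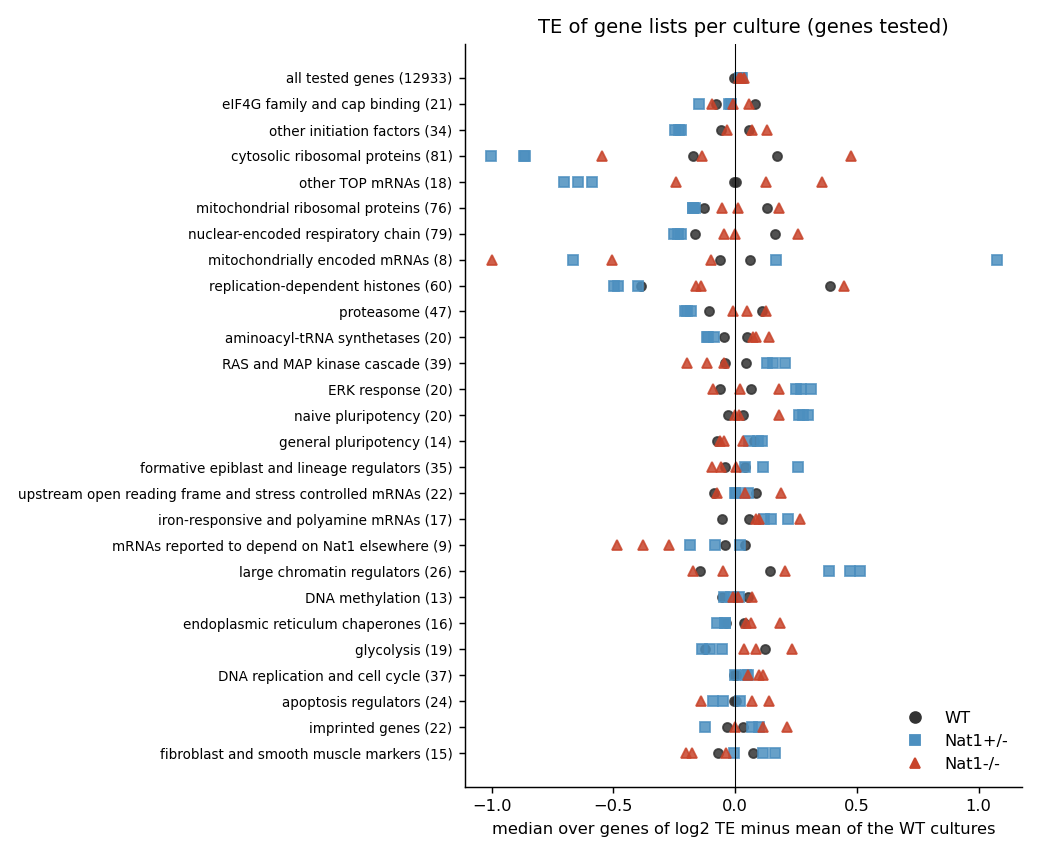
Median over the genes of each list of log2 TE minus the mean of the WT cultures, 1 point a culture, with the number of genes tested in brackets. The wide spreads are those of ribosomal protein, TOP, histone and mitochondrially encoded mRNAs, and the median of the 9 mRNAs reported to depend on Nat1 is -0.38, -0.27 and -0.48 in B12, B2 and C3 against -0.04 and 0.04 in WT.

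Pluripotency genes changed in level, and limma called 0 of them in TE. Of 20 naive pluripotency genes tested of 21, 13 rose and 2 fell in RPF and as many in total RNA (median changes 1.10 and 1.14; 16.8% and 17.1% of tested genes rose), while the median TE change was 0.06 with 0 calls by the 3 tools and 1 unadjusted p under 0.05. Nanog, a core regulator of this state, had an RPF of 5624 and 8527 in WT and 17920, 18413 and 19139 in Nat1-/- and a log2 TE of 0.79 and 0.95 against 0.92, 0.99 and 1.15, which overlap. Klf4, another such factor, rose by 2.78 ± 0.30 in RPF and 3.16 ± 0.27 in total RNA, with a TE change of -0.38 ± 0.19 (limma adjusted p = 0.505). Dppa3 fell by 5.21 in RPF and by 5.80 in total RNA on the log2 scale, and its TE read 0.59.

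In the general pluripotency list the median TE change over 14 genes was 0.00 (0 limma calls, 1 unadjusted p under 0.05). Pou5f1 (Oct4) read 0.03 ± 0.11 and Sox2 -0.26 ± 0.15. Trim71, an RNA-binding ubiquitin ligase of early development, was called lower by edgeR and DESeq2 (TE change -0.66 ± 0.12, limma adjusted p = 0.110, edgeR adjusted p = 0.0083). Its RNA rose from 18479 and 18801 to 40523, 37622 and 27233, with an RPF of 4107 and 4124 in WT and 5919, 5038 and 3789 in Nat1-/- that overlapped. Of 35 formative and lineage regulators tested of 38, 22 fell and 5 rose in RPF and 21 and 5 in total RNA (median changes -2.06 and -2.22; 18.2% and 18.8% of tested genes fell), yet the median TE change was 0.01, with 0 calls by the 3 tools and 1 unadjusted p under 0.05. Lamb1, a laminin chain, for instance fell by 2.41 in RPF and by 2.66 in total RNA on the log2 scale and read 0.25 ± 0.10 in TE.

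Stress and metabolite-controlled mRNAs, which carry upstream reading frames or regulatory stem-loops, gave few tested differences. In the upstream reading frame list (22 of 23 tested, median 0.01) limma and edgeR called 0 and DESeq2 called 2 higher. At an unadjusted p under 0.05 there were 3 higher and 1 lower (5.14% and 6.15% of tested genes). Atf4, the central factor of the stress response, read -0.20. Amd1, an enzyme of polyamine synthesis whose upstream frame senses polyamines, read 1.00 ± 0.29 (limma adjusted p = 0.258; called by DESeq2), from an RPF of 247 and 243 in WT and 358.5, 299 and 203 in Nat1-/- and a total RNA of 1721 and 1203 against 1396, 793 and 498. Mthfd2, a mitochondrial folate enzyme, read 0.34 ± 0.09.

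Iron-responsive and polyamine mRNAs (17 genes) had a median of 0.15. Of them 5 lay above both WT cultures and 3 below (29.4% and 17.6%, against 14.9% and 12.3% of tested genes). They had 0 limma and edgeR calls and 1 higher and 1 lower with DESeq2. At an unadjusted p under 0.05 there were 4 higher and 2 lower (5.14% and 6.15% of tested genes). The ferritin mRNAs, whose stem-loop near the cap blocks translation when iron is low, are named after their values were seen. Log2 TE of the light chain Ftl1 was -5.32 and -4.94 in WT, then -1.82, -2.93 and -2.74 in Nat1+/- cultures, against -4.51, -4.14 and -2.24 in Nat1-/- (limma adjusted p = 0.452). That of the heavy chain Fth1 was -3.35 and -3.01, then -0.78, -1.90 and -1.73, then -3.11, -2.35 and -1.12 (0.99 ± 0.57, adjusted p = 0.561). In both genes the Nat1-/- cultures ran from near WT in B12 to the Nat1+/- range in C3. The receptor Tfrc, which has its stem-loops at the other end of the mRNA, read 0.03 ± 0.12. Odc1, the first enzyme of polyamine synthesis, read -0.47 ± 0.15 and the antizyme Oaz2 -0.35 ± 0.11.

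Lists of abundant housekeeping genes had 0 limma and edgeR calls in TE. Among nuclear-encoded respiratory chain genes (79), 9 lay above both WT cultures (11.4%, against 14.9% of tested genes) and 0 below (12.3% of tested genes). In RPF 16 rose, where 16.8% of tested genes rose. They had 0 unadjusted p under 0.05 in TE and a median TE change of 0.07. Mitochondrial ribosomal proteins (76) had 0.05, the proteasome (47) 0.05, aminoacyl-tRNA synthetases (20) 0.11, glycolysis (19) 0.11, endoplasmic reticulum chaperones (16) 0.09 and DNA methylation genes (13) 0.02. Without WT replicate 1 the medians were 0.24 for the respiratory chain, 0.19 for mitochondrial ribosomal proteins, 0.15 for the proteasome and 0.23 for glycolysis. Without WT replicate 2 they were -0.10 for the respiratory chain, -0.04 for the proteasome, -0.01 for glycolysis and 0.04 for the synthetases. Among them the unadjusted p was under 0.05 in 1 higher mitochondrial ribosomal protein, 1 lower proteasome gene (Psme4, -0.28 ± 0.11), 1 higher chaperone (Herpud1, 0.31 ± 0.12) and 1 lower DNA methylation gene (Tet3, -0.60 ± 0.20), and DESeq2 called 0 in these lists. DNA replication and cell cycle genes (37, median 0.08) lay above both WT cultures in 12 (32.4%, against 14.9% of tested genes) and below in 3 (8.11%, against 12.3%), with 1 unadjusted p under 0.05, that of the licensing factor Cdt1 (0.46 ± 0.10, limma adjusted p = 0.134), which DESeq2 called. Replication-dependent histones (60 of 68 tested), near-identical copies among which counting can split reads, had 0.06, with 2 higher and 1 lower at an unadjusted p under 0.05 and 1 lower call by DESeq2.

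Mitochondrially encoded mRNAs are translated inside mitochondria by other ribosomes, and 8 of 13 were tested. Their median TE change was -0.47, with 3 below both WT cultures and 0 above (12.3% and 14.9% of tested genes). Their culture medians were -0.51 in B2, -0.10 in C3 and lowest in B12, but -0.67 in A7, 1.08 in B4 and 0.17 in C1. They had 0 calls by the 3 tools and 0 unadjusted p under 0.05, and the spread among Nat1+/- cultures was wider than the difference between Nat1-/- and WT. For example mt-Cytb read -0.65 ± 0.52 and mt-Nd6 -0.79 ± 0.37.

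Imprinted genes (22 tested) had 16 members lower in RPF and 15 in total RNA, where 18.2% and 18.8% of tested genes were lower, and 0 higher. Their median TE change was 0.09, with 0 limma calls and 4 higher at an unadjusted p under 0.05 (5.14% of tested genes). EdgeR and DESeq2 each made 1 higher call, that of Dlk1 described above. Peg3 lost footprints and RNA together, to 44.3, 34.6 and 22.8 and to 59.0, 48.0 and 4.47 normalised reads, and its TE of -0.41, -0.46 and 2.12 in B12, B2 and C3 differed from WT (-0.70 and -0.32) in C3 alone, where RNA was lowest. Fibroblast and smooth muscle markers (15 tested of 19 in the table) fell by more than any other list in level, with medians of -5.00 in RPF and -4.49 in total RNA. Of them 13 were lower in RPF and 14 in total RNA, where 18.2% and 18.8% of tested genes were lower. Their TE median was -0.16, with 0 calls by the 3 tools and 1 unadjusted p under 0.05 in each direction, and it was 0.02 among members with means of at least 50. Acta2, smooth muscle actin, read 1.67 ± 0.66 at a total RNA of 0.52, 0 and 0 in Nat1-/-, which leaves its ratio without an interpretable size.

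Outside these lists, edgeR's calls included further genes outside the low counts, of which the following are the next by p and are named after their values were seen. Atp11a, a lipid flippase, gained RNA, from 1765 and 2365 to 5094, 5237 and 5904, with an RPF of 436 and 559 in WT and 627, 599.5 and 770.1 in Nat1-/-, and its log2 TE of -2.02 and -2.08 stood against -3.02, -3.12 and -2.94 (TE change -0.98 ± 0.13, limma adjusted p = 0.0519, edgeR adjusted p = 0.0013). Fam91a1, a protein of vesicle trafficking, lost footprints at level RNA, 1340 and 1397 against 897, 782 and 740.5, with -0.76 ± 0.12. Faf1, a ubiquitin-binding protein, read -0.85 ± 0.12 and Egln1, the oxygen-sensing prolyl hydroxylase, -0.93 ± 0.16. Syne2, a nuclear envelope protein, read 1.08 ± 0.15 from an RPF of 475 and 506 against 788, 1425 and 1464.

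Tpm1, tropomyosin 1, an actin-binding protein of many cell types including fibroblasts and muscle, read -0.88 ± 0.11 (edgeR adjusted p = 0.0053). Its RPF was 14200 and 11984 in WT and 1191, 1088 and 1181 in Nat1-/- and it moved with the fibroblast markers given above, whose part was not tested. Itpripl2 was called by edgeR at 4.32, but its log2 TE in Nat1-/- ran from 1.35 in C3 to 4.47 in B12, and limma gave 3.38 ± 0.89 (adjusted p = 0.205).

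A wider set, chosen by non-overlap and size, held 110 genes that did not overlap and were at least 2-fold higher (0.851% of tested genes) and 112 that were at least 2-fold lower (0.866%). They were low genes, with median means of 25.5 and 30.5 normalised reads in RPF against 451 for all tested genes. Among the 112 with lower TE, footprints were called lower in 77 (18.2% of tested genes), in 50 of them with lower RNA and in 3 with higher RNA. Among the 110 with higher TE, RNA was called lower in 67 and footprints higher in 29 (18.8% and 16.8% of tested genes). Both sets were picked by the ratio of these values, which favours such calls, so the counts only describe the sets.

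Nat1+/- cultures lay between WT and Nat1-/- in the 4 genes with called higher TE, by genotype means. Of the 10 called lower, the Nat1+/- mean lay between them in 7 and above both in 3. Over all 12933 tested genes the Nat1+/- mean lay between them in 3057, above both in 5036 and below both in 4840. The called genes were picked for a wide gap between WT and Nat1-/-, which favours a mean inside it. These counts therefore do not test an effect of Nat1 dose. The Nat1+/- mean differed from that of WT by -0.03 in Mark3, -0.15 in Rbms2 and 0.07 in Mprip (log2). In the same fit, TE of Nat1-/- against Nat1+/- gave 1275 calls (9.86%; 446 or 3.45% higher, 829 or 6.41% lower; 30.6% at an unadjusted p under 0.05) and Nat1+/- against WT gave 0 by limma (2508 or 19.4% at an unadjusted p under 0.05), comparisons that share the Nat1-/- and the WT cultures with this one. For Sos1 the 3 changes were -1.30 for Nat1-/- against WT, -1.70 for Nat1-/- against Nat1+/- and 0.40 for Nat1+/- against WT, for Map3k3 -1.11, -1.51 and 0.40, for Mark3 -1.11, -1.08 and -0.03, and for Nudt4 -1.02, -0.86 and -0.16.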

How the data were processed

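Ribosome-protected fragment (RPF) and total RNA libraries had been made with the TruSeq Ribo Profile Mammalian Kit, per the labels' protocols. The submitters' processing notes list HTSeq 0.6.1, TopHat2 2.1.0, Bowtie2 2.2.8, DESeq2, cutadapt 1.9.1 and bcl2fastq 2.17, with mm10 and GRCm38.p4 as builds. Footprint length limits, strand setting and handling of multi-mapping reads are not given in the sources used here. Deposited values are a signal, namely counts that the authors scaled by each library's size factor, as the steps between values show, and whole reads could be recovered from them (tolerance 0.001).

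Log2((RPF + 1)/(total RNA + 1)) per culture was fitted with limma 3.58.1 in R 4.3.3 (genotype means over 8 cultures, empirical Bayes with trend, two-sided, Benjamini-Hochberg over 12933 genes). The 24 alternatives covered the model, edgeR 4.0.16 and DESeq2 1.42.0 on recovered reads, pseudocount, filter, scaling, depth and each culture left out. The test was tested on simulated data with 200 changed genes among 12933. It recovered 0% of 1.5-fold and 2-fold changes and 31.8% of 4-fold changes, with 2 false calls. Footprint and RNA reads were drawn independently of each other, each with the spread of its assay. Spread that both assays of a culture share, which the ratio removes in real data, thus stayed in the simulated TE. The simulated rates therefore need not hold for the deposited data.

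Named genes were Eif4g2, Sos1 and Map3k3, then up to 12 called genes a direction with means of at least 50 and no overlap (where fewer than 6 passed, the 6 smallest p), then up to 2 of each list by p. Predicted genes and the 27 date-like names were passed over. Members and the 26 lists were chosen with earlier results of these data known. Other genes given from the lists, and those so marked, were chosen after their values were seen. Some genes that the rule or the lists hold are counted in the totals and not reported here by name.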

Additional observations from a re-analysis of the deposited data

How the results depend on the processing

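The number of genes called for TE depended on the model, where the main setting gave 14 (4 higher, 10 lower). The interaction over 16 libraries gave 1 call (0 higher, 1 lower), and a fit of only the 5 WT and Nat1-/- cultures gave 0 (0 higher, 0 lower, with 1082 at an unadjusted p under 0.05). A pseudocount of 5 gave 31 (14 higher, 17 lower), a minimum mean of 50 gave 20 with 8 higher, no filter gave 1 (0 higher, 1 lower), and empirical Bayes without trend gave 22 with 9 higher. EdgeR gave 173 (30 higher, 143 lower) and DESeq2 311 (79 higher, 232 lower). With only the deep total RNA libraries, where B12 is the lone Nat1-/- culture and is assumed to vary like the others, limma gave 0 (0 higher, 0 lower, 1379 unadjusted), and RPF calls were 2773. The replicate block gave 0 (0 higher, 0 lower, 1500 unadjusted). The replicate numbers do not pair the cultures by label. Deviations from the genotype mean gave r = 0.36 for WTex1 with B12, 0.15 for WTex2 with B2 and 0.22 for WTex2 with C3. With 2 WT cultures these deviations are mirror images, so each r of WTex2 is that of WTex1 with the sign reversed. Such values, from fewer than 3 pairs, cannot decide on a pairing, and the numbers were not taken as pairing. Leaving out each replicate gave 0 to 16 TE calls, 0 to 10 higher and 0 to 10 lower, 1933 to 5079 RPF calls and 2336 to 4964 total RNA calls. A pseudocount of 0.5, equal library sums, TMM factors, centring, robust empirical Bayes and thinned total RNA gave 11 to 16 calls. The cause of these differences was not tested. Without WT replicate 2 the respiratory chain median was -0.10 and that of histones -0.38, and without WT replicate 1 they were 0.24 and 0.45. In the simulated data the main setting recovered 0% of the 1.5-fold and 2-fold changes and 31.8% of the 4-fold ones, and sizes between were not simulated. Footprint and RNA reads were drawn independently there, so these rates need not be those of the deposited data.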
